A study of Caenorhabditis elegans with 2 samples.

Results

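The nas and mlt genes of Caenorhabditis elegans were followed on 2 two-colour microarrays that compared glp-4 larvae with a wild-type reference. A gene was included if a probe was assigned by the platform annotation to exactly 1 gene and its symbol was nas- or mlt- followed by a number. This gave 39 probes and 38 genes, 32 named nas and 6 named mlt, out of 14777 genes with a value on both arrays. All 38 genes had a value on both arrays and none was lost to a filter. The RefSeq table for the WBcel235 assembly lists 45 such names. The other 7 (nas-2, nas-13, nas-23, nas-30, nas-40, mlt-3 and mlt-10) were not analysed here.

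Channel 2 of each array held messenger RNA from glp-4 animals in the L2, the second of the larval stages, with 1 array for preparation 1 and 1 for preparation 2. glp-4 mutants are known for a gonad with very few germ cells when grown warm. Channel 1 held messenger RNA of a mixed wild-type reference on both arrays. The channels therefore differ in genotype and in stage at once, and wild-type L2 larvae were not analysed here. The glp-4 allele, the temperature of growth and the hour of collection within the stage are not given by the labels. Whether the 2 preparations came from separate cultures is not stated either. The p-values therefore rest only on the spread between these 2 arrays, for each gene and pooled over all genes. That spread may be technical.

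The authors' values were read as log2 ratios, likely glp-4 L2 over reference, so a value above 0 means more RNA in glp-4 L2. The dyes are not stated. The likely direction follows the order of the names in the labels and the major sperm protein and yolk protein genes, whose medians lay below 0 on both arrays, so neither of these gene groups is a finding. Every sign below would turn if the direction were wrong. All 14777 genes together had a median of 0.10 in preparation 1 and 0.02 in preparation 2, and the arrays correlated at r = 0.53 over all probes. Of 16 measured germ cell markers, 15 lay below 0 on both arrays, where 30.8% of all genes did. By limma at an adjusted p threshold of 0.05, 5 of the markers were lower (2 to 8 under the alternatives tried), where 1.50% of all genes were. The sign of the germ cell markers depends on the same choice of direction, so it is not read as a finding either. In RNA of whole worms, fewer cells of a type and less RNA per cell cannot be told apart. No signal intensities were used, so whether a probe lay above background is unknown, and the number of arrays limits the precision.

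Nematodes grow through molts. At the end of each larval stage the epidermis detaches the old cuticle, secretes a new one beneath it, and the animal sheds the old one by ecdysis. The nas genes encode astacins, secreted zinc metalloproteases made as inactive precursors. Some digest cuticle or eggshell, some process collagen precursors, and others are made in the pharynx and intestine. The mlt genes were named for defects in molting and do not form 1 protein family. They include a heme peroxidase, a protease inhibitor and cytoplasmic scaffold proteins. Many genes of the molt are transcribed in pulses, once per larval stage.

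None of the 38 genes passed the gene test, limma's moderated test of the mean ratio against 0 with Benjamini-Hochberg adjustment over all 14777 genes and a threshold of 0.05. The lowest adjusted p among them was 0.0891, for nas-12. Over all genes the same rule called 1.86%, with 0.365% higher and 1.50% lower. At an unadjusted p under 0.05, limma gave 7 of the 38 genes above 0, where 7.78% of all genes met that rule, and 4 below 0, where 10.9% did. Among the 7, and in the counts of sign below, nas-14 is an average of probes that disagreed.

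Without a test, 3 of the 38 genes (nas-12, nas-3 and nas-25) exceeded the reference 2-fold or more on both arrays, which is 7.89% of them beside 4.0% of all genes. Another 3 (nas-20, nas-31 and nas-37) lay 2-fold or more below the reference on both arrays, also 7.89%, beside 7.35% of all genes. The share on the low side was thus near that of all genes. In sign, 22 of the 38 genes lay above 0 on both arrays, 7 lay below 0 on both, and 9 had opposite signs. These counts correspond to 57.9%, 18.4% and 23.7%, and the shares over all genes were 36.97%, 30.8% and 32.2%.

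The nas genes had a median log2 ratio of 0.75 over both arrays, 0.79 in preparation 1 and 0.29 in preparation 2, where the median of the means of all genes was 0.08. Of the 32 nas genes, 20 lay above 0 on both arrays and 6 below 0 on both. The median of the 6 mlt genes was 0.04, with 0.36 in preparation 1 and -0.65 in preparation 2, and its sign turned to -0.02 when each array was centred on its median. The mlt genes therefore had no common direction.

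**Figure D1:**
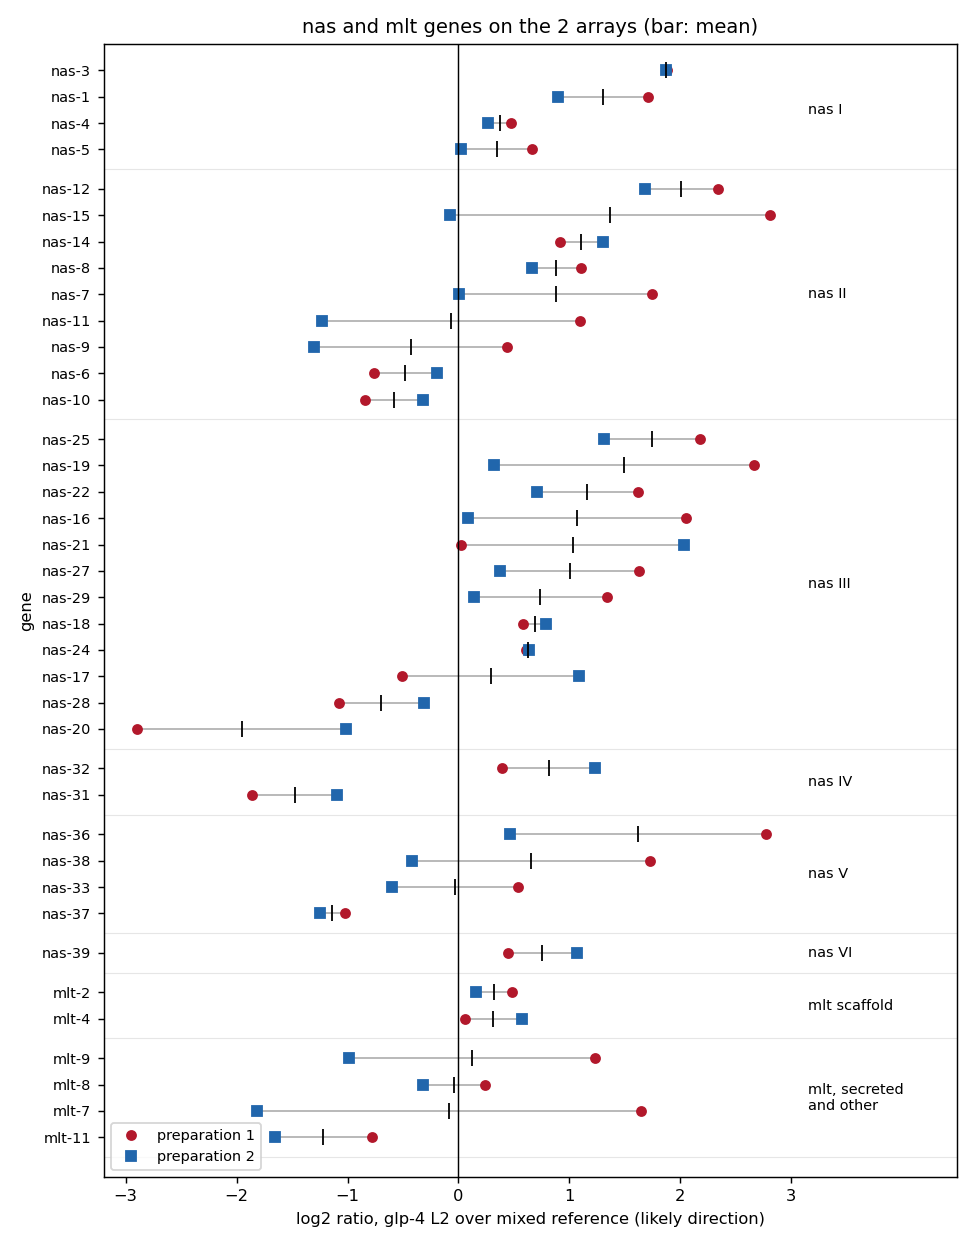
Log2 ratio (glp-4 L2 over mixed reference, likely direction, horizontal axis) of each nas and mlt gene (vertical axis) on the preparation 1 array (circles) and the preparation 2 array (squares), with the mean as a vertical bar and genes grouped by class. Symbols of nas-3 coincide, whereas those of mlt-7 lie 3.46 log2 units apart on either side of 0.

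By domain composition the C. elegans astacins are divided into 6 classes, numbered I to VI. Class I proteins consist of little beyond the precursor segment and the catalytic domain. All 4 measured class I genes lay above 0 on both arrays, with a class median of 0.84. nas-3 was at 1.88 in preparation 1 and 1.88 in preparation 2. The 2 arrays thus gave nearly the same ratio, 3.67-fold as a mean, and the gene's limma adjusted p was 0.0908. The limma test also draws on the spread pooled over all genes, so the small gap of nas-3 alone does not set its p-value. The second of the class, nas-1, was at 1.71 and 0.90 (mean 1.31 ± 0.57, SD, n = 2 here and below, limma adjusted p = 0.203). nas-4 had ratios of 0.47 and 0.27 and nas-5 of 0.67 and 0.03 on the preparation 1 and 2 arrays, so neither stood clear of the bulk of genes.

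Class II astacins carry ShK toxin-like domains behind the catalytic domain. Its 9 measured genes had a median of 0.88 and spread from -0.58 to 2.01, with 4 above 0 on both arrays, 2 below 0 on both and 3 of opposite sign. nas-12 was at 2.34 in preparation 1 and 1.68 in preparation 2, the highest mean of all 38 genes (2.01 ± 0.46, 4.03-fold, limma adjusted p = 0.0891). Both values lay above the 94th percentile of all genes on their array. The 95% interval of the nas-12 mean, not adjusted for the number of genes, ran from 0.98 to 3.04. After quantile normalization of the arrays nas-12 passed the gene test, with a limma adjusted p of 0.0499, and under the other alternatives tried its adjusted p lay between 0.0720 and 0.105.

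Other class II genes differed between the arrays. nas-15 was at 2.81 in preparation 1 and -0.07 in preparation 2 (mean 1.37 ± 2.04, limma adjusted p = 0.364). It was the highest of the 38 genes on the first array and close to the reference on the second. nas-7 showed the same arrangement, with 1.75 and 0.004 (mean 0.88 ± 1.23, limma adjusted p = 0.419). nas-11 was at 1.10 and -1.23, and nas-9, which is made in the epidermis, at 0.44 and -1.30 (mean -0.43 ± 1.23, limma adjusted p = 0.682), so the arrays fell on opposite sides of 0 for both genes.

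nas-6, which maintains the grinder of the pharynx, was at -0.76 in preparation 1 and -0.20 in preparation 2 (mean -0.48 ± 0.40, limma adjusted p = 0.551). nas-10 lay close to it, at -0.84 and -0.32 (mean -0.58 ± 0.37, limma adjusted p = 0.472). These were the 2 class II genes below 0 on both arrays. nas-8 was at 1.10 and 0.66, above 0 on both. nas-14 averaged 0.91 and 1.30 on the preparation 1 and 2 arrays, but it was the only gene of the 38 with several probes and they disagreed. One nas-14 probe gave -0.22 and 0.12, and the other gave 2.04 and 2.49. The array-to-array spread of either nas-14 probe was smaller than the gap between them, so no single level could be given for that gene.

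Class III astacins carry EGF-like and CUB domains, modules of extracellular protein binding. Its 12 measured genes had a median of 0.87, and 9 lay above 0 on both arrays, 2 below 0 on both and 1 had opposite signs. nas-25 was at 2.18 in preparation 1 and 1.32 in preparation 2 (mean 1.75 ± 0.61, 3.36-fold, limma adjusted p = 0.128). It ranked behind nas-12 and nas-3 by mean. At the other end, nas-20 was at -2.90 and -1.01, the lowest mean of the 38 (-1.96 ± 1.34, 3.88-fold lower, limma adjusted p = 0.166). Its 95% interval, not adjusted for the number of genes, ran from -3.35 to -0.56. Both nas-20 values lay more than 1 log2 unit below 0, although they differed from each other by 1.89.

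Of the remaining class III genes, nas-27 was at 1.63 and 0.38, nas-29 at 1.34 and 0.14 and nas-24 at 0.61 and 0.64 on the preparation 1 and 2 arrays, all on the upper side. nas-28 was at -1.08 and -0.31 (mean -0.70 ± 0.54, limma adjusted p = 0.414), which made it the other gene of its class below 0 on both arrays.

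Besides the spread within the class, 7 class III genes were neighbours on chromosome V. In the RefSeq order of protein-coding genes, nas-16, nas-18, nas-17 and nas-19 followed each other with 1 other gene among them, and after 13 further genes came nas-20, nas-21 and nas-22 with 0 between them. Their ratios ranged widely. nas-19 was at 2.67 in preparation 1 and 0.32 in preparation 2 (mean 1.49 ± 1.66, limma adjusted p = 0.284), and nas-16 had 2.06 and 0.08. nas-22 was at 1.62 and 0.71 (mean 1.16 ± 0.65, limma adjusted p = 0.247), with both arrays on the same side. nas-18 was at 0.58 and 0.79, with little difference between the arrays.

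Of the 7 neighbours, 3 (nas-16, nas-19 and nas-22) had the larger ratio on the preparation 1 array and 4 (nas-17, nas-18, nas-20 and nas-21) on the preparation 2 array. nas-17 was at -0.51 in preparation 1 and 1.09 in preparation 2, and nas-21 was at 0.03 and 2.03. nas-20, the lowest of all, thus adjoined nas-21 in the gene order. The 7 genes had a median of 1.03 over both arrays, and 5 lay above 0 on both. Whether probes of neighbouring copies bind each other's RNA was not tested, since no probe sequences were used.

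**Figure D2:**
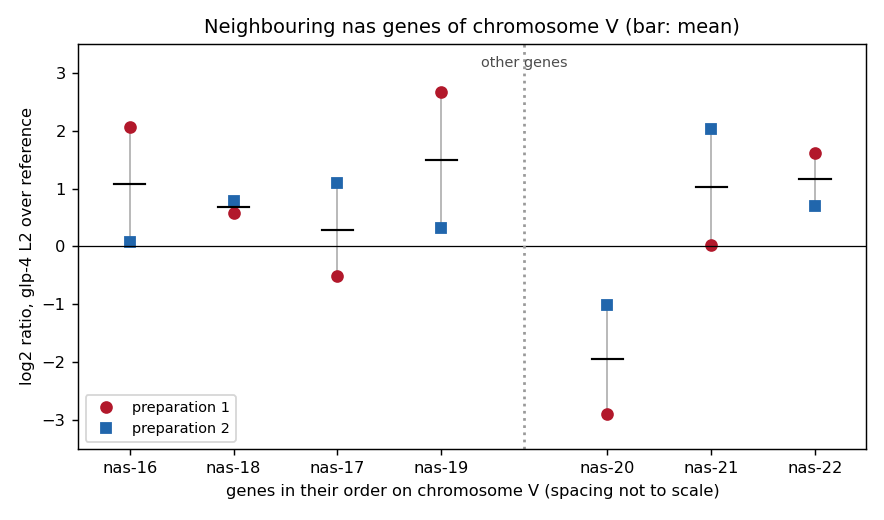
Log2 ratio (glp-4 L2 over mixed reference, vertical axis) of 7 nas genes in their order on chromosome V (horizontal axis, not to scale), with circles for the preparation 1 array, squares for the preparation 2 array and a bar for the mean. nas-20 lies below 0 on both arrays, at -2.90 and -1.01, while the other 6 genes have means above 0.

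Class IV held 2 measured genes, which lay on opposite sides of 0. nas-31 was at -1.86 in preparation 1 and -1.09 in preparation 2 (mean -1.48 ± 0.54, 2.78-fold lower, limma adjusted p = 0.166). nas-32 was at 0.39 and 1.23, so the values of the 2 genes did not overlap. The single class VI gene, nas-39, resembles the tolloid proteases that process procollagen and growth factors in other animals. It was at 0.44 in preparation 1 and 1.07 in preparation 2 (mean 0.76 ± 0.44, limma adjusted p = 0.371).

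Class V astacins add a thrombospondin type repeat and include the enzymes with the best known roles in molting and hatching. nas-37, which digests the old cuticle at ecdysis, was at -1.03 in preparation 1 and -1.25 in preparation 2. The arrays agreed to within 0.22 log2 units, and the mean of -1.14 ± 0.16 corresponded to a 2.20-fold lower level (limma adjusted p = 0.219). nas-36, which acts with nas-37 in shedding the cuticle, was at 2.77 and 0.46 (mean 1.62 ± 1.63, limma adjusted p = 0.257). The 2 ecdysis proteases thus lay on opposite sides of 0 on both arrays. The difference between them was not tested, and levels of different probes were not compared.

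nas-38, which takes part in the quiescence of molting larvae, was at 1.73 in preparation 1 and -0.42 in preparation 2 (mean 0.66 ± 1.52, limma adjusted p = 0.580). nas-33 was at 0.53 and -0.60, again with opposite signs. The other class V enzymes, those of hch-1 and dpy-31, go by other names in the annotation and are therefore not among the 38. The hatching enzyme gene hch-1, also called nas-34, was at -0.91 and -1.08 (mean -0.99 ± 0.13, limma adjusted p = 0.261). dpy-31, also called nas-35, which trims collagen precursors, was at 0.36 and 0.09 (mean 0.23 ± 0.19, limma adjusted p = 0.777). The tolloid-related gene toh-1 is an astacin under another name and was given no class here. Its ratios were 1.06 and -0.27 (mean 0.40 ± 0.94, limma adjusted p = 0.676).

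Among the mlt genes, mlt-2 and mlt-4 encode ankyrin-repeat scaffold proteins that bind the NIMA-type kinases NEKL-2 and NEKL-3 and act in membrane trafficking of the epidermis. mlt-2 was at 0.49 in preparation 1 and 0.16 in preparation 2 (mean 0.32 ± 0.23, limma adjusted p = 0.676). mlt-4 was at 0.06 and 0.57 (mean 0.32 ± 0.36, limma adjusted p = 0.691). Both scaffold genes lay above 0 on both arrays by small amounts. The kinase gene nekl-2 was at -0.25 and -0.76 (limma adjusted p = 0.525) and nekl-3 at 1.39 and 0.16 (limma adjusted p = 0.414).

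The other 4 mlt genes each had the larger ratio on the preparation 1 array. mlt-7, a heme peroxidase of cuticle assembly, was at 1.64 in preparation 1 and -1.82 in preparation 2. This was the widest gap between the arrays among the 38 genes, and the mean of -0.09 ± 2.45 was small beside its spread (limma adjusted p = 0.962). mlt-9, a secreted protein needed for molting, had the same arrangement at 1.23 and -0.98 (mean 0.12 ± 1.56, limma adjusted p = 0.925).

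mlt-8, which is also needed for molting, was at 0.24 and -0.32 (mean -0.04 ± 0.40, limma adjusted p = 0.963). mlt-11, a Kunitz-type inhibitor of serine proteases, was at -0.78 in preparation 1 and -1.66 in preparation 2 (mean -1.22 ± 0.62, 2.32-fold lower, limma adjusted p = 0.229). It was the only mlt gene below 0 on both arrays.

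The gap between the arrays itself was uneven. Of the 38 genes, 25 had the larger ratio on the preparation 1 array (65.8%, beside 49.7% of all genes), and the median of preparation 1 minus preparation 2 was 0.60, beside -0.004 over all genes. In 13 genes the preparation 1 value was higher by at least 1 log2 unit (34.2%, beside 18.3% of all genes), and in 3 it was lower by that much (7.89%, beside 12.7%). Of the 9 genes with opposite signs, 8 (nas-9, nas-11, nas-15, nas-33, nas-38, mlt-7, mlt-8 and mlt-9) were above 0 on the preparation 1 array and below 0 on the preparation 2 array, and nas-17 was the reverse. With 1 array per preparation this gap has no test. The titles of the arrays also differ in a code and in a part that reads as a date. These differences cannot be told apart from preparation. Over the 38 genes the arrays correlated at r = 0.35, a description across genes of the same 2 arrays, and over all genes at r = 0.53.

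**Figure D3:**
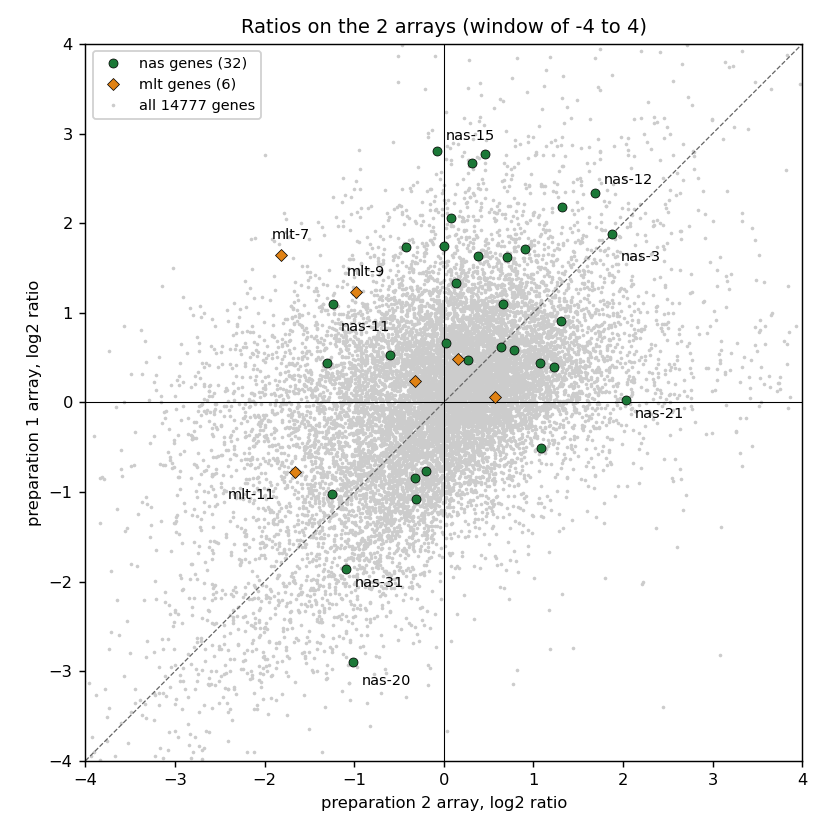
Log2 ratio (glp-4 L2 over mixed reference) on the preparation 1 array (vertical axis) against the preparation 2 array (horizontal axis) for the nas genes (circles), the mlt genes (diamonds) and all genes (grey points), with a dashed line of equality. The window from -4 to 4 leaves out 189 of all genes and none of the 38, of which 25 lie above the line.

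Genes that share the work of the molt were read from lists drawn up for comparison, without a list test. Of 17 molting regulators measured, 0 passed the gene test (1 was lower after quantile normalization), and the list's medians lay at 0.28 in preparation 1 and -0.42 in preparation 2. The nuclear receptor gene nhr-23, which drives transcription for the molt, was at 0.91 and -0.48 (limma adjusted p = 0.833). The largest means were those of lrp-1, a megalin-type receptor of the epidermis needed for molting (-3.06 and -1.74, limma adjusted p = 0.0828), its adaptor gene dab-1 (near 0 in preparation 1 and at -3.57 in preparation 2, limma adjusted p = 0.327) and the nuclear receptor gene nhr-67 (1.82 and 1.37, limma adjusted p = 0.132). Of 22 genes of the apical matrix, 0 passed (2 lower and 1 higher after quantile normalization), with medians of 0.45 and -0.60. The matrix genes noah-1 (-2.83 and -1.75), egg-6 (-2.04 and -2.11) and sym-1 (1.98 and 2.35) had the largest means in size, with limma adjusted p of 0.0812, 0.0716 and 0.0678.

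Of 24 other proteases, inhibitors and cuticle enzymes, 1 was lower past the gene test and 0 were higher (2 lower with each array centred and after quantile normalization). The 1 gene was skpo-1, a peroxidase of the epidermis, at -3.37 in preparation 1 and -3.34 in preparation 2 (mean -3.35 ± 0.02, limma adjusted p = 0.0306). The list's medians lay at 0.37 in preparation 1 and -0.96 in preparation 2, and 19 of its 24 genes had the larger ratio on the preparation 1 array.

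Cuticle collagens are made at fixed phases of each molting cycle, furrow collagens early and others later. The 5 measured early-phase genes had medians of 1.13 in preparation 1 and 0.65 in preparation 2, with dpy-3 at 1.23 and 1.06. The 7 later-phase genes had medians of 2.42 and 1.13, and all 7 had the larger ratio on the preparation 1 array by at least 1 log2 unit. dpy-5 was at 3.16 and 1.64 and dpy-13 at 3.40 and 1.32. Not all collagens were alike in sign. Of the early-phase genes, 4 lay above 0 on both arrays and 1 had opposite signs. Of the later-phase genes, 5 lay above 0 on both arrays and 2 had opposite signs. The shares over all genes were 36.97% above 0 on both arrays and 32.2% of opposite sign. None of these 12 collagens passed the gene test, although 1 of the later-phase genes was higher after quantile normalization, and the limma adjusted p nearest the threshold was 0.0945, for dpy-5.

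List medians of tissue markers also differed between the arrays, while single markers went both ways. In preparation 1 and preparation 2 the medians were 0.48 and -0.25 for 11 epidermal markers, 0.82 and -0.03 for 11 pharyngeal markers, 1.66 and 0.43 for 11 intestinal markers and 1.06 and 0.10 for 9 body muscle markers. The larger ratio was on the preparation 1 array for 8 of the 11 epidermal, 9 of the 11 pharyngeal, 7 of the 11 intestinal and 6 of the 9 muscle markers. The germ cell markers were at -2.12 and -2.52, and 10 embryo markers at -0.41 and -0.30, of which 9 had the smaller ratio on the preparation 1 array. By the gene test nhr-73 was higher among the epidermal markers, phat-4 among the pharyngeal ones and lbp-7 and pept-1 among the intestinal ones, and pes-2.1 and sdz-27 were lower among the embryo markers, with limma adjusted p between 0.0257 and 0.0452. Of these, pept-1, sdz-27 and pes-2.1 did not pass with ratios limited to 5, nor did pept-1 and pes-2.1 with the lowest-numbered probe. Of the muscle markers 0 passed, and 1 was lower after quantile normalization. Mean ratios of single markers ranged from -0.91 to 3.16 in the epidermal list, from -0.78 to 3.97 in the pharyngeal list and from -1.74 to 3.77 in the intestinal list. In the body muscle list they ranged from -2.13 to 1.86. The part of tissue makeup, of the time of collection and of the arrays themselves in the gap between preparations was not tested. With 1 array per preparation these cannot be told apart.

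**Figure D4:**
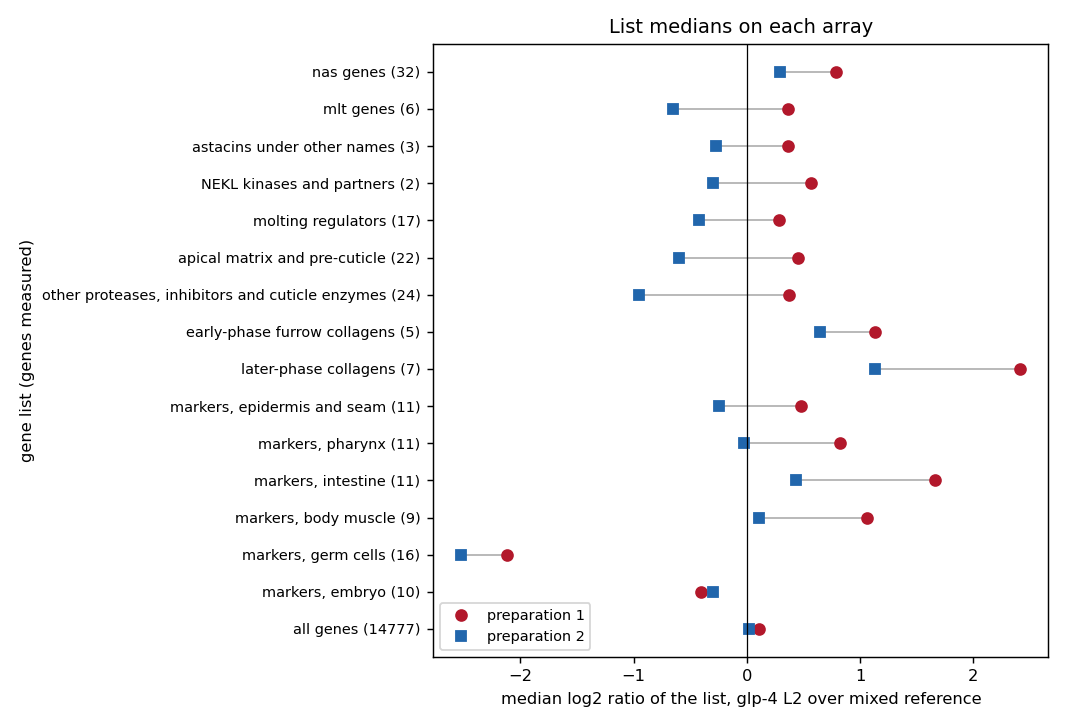
Median log2 ratio (glp-4 L2 over mixed reference, horizontal axis) of each gene list (vertical axis, with the number of genes measured) on the preparation 1 array (circles) and the preparation 2 array (squares). The circle lies to the right of the square in every list except the embryo markers, while the 2 medians of all genes are 0.10 and 0.02.

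By chromosome, 14 of the 38 genes lie on V, 8 on X, 6 on II, 4 on IV, 3 on I and 3 on III. The median ratio was 0.05 over the 8 genes on X and 0.66 over the 14 on V. The X-linked genes were nas-10, nas-11, nas-15, nas-33, nas-37, nas-38, nas-39 and mlt-9, of which nas-39 alone lay above 0 on both arrays. nas-10 and nas-37 lay below 0 on both, and the others had opposite signs. Over all genes the median was 0.08, with 36.97% above 0 on both arrays and 32.2% of opposite sign. Values over all genes of X or V are not given here, so these 8 genes show no pattern particular to X.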

How the data were processed

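The table that the authors deposited holds 21632 probes with a single number for each array, and how it was made is not stated. The deposited numbers were taken for log2 ratios of the channels, because undoing the logarithm gave steps of 0.001 (tolerance 0.002 of a step) for 99.1% of values in preparation 1 and 98.8% in preparation 2. Of the probes, 16450 had 1 gene in GEO's platform annotation, 247 had several and 4935 had none. Entrez IDs linked 16360 of the 1-gene probes to current RefSeq symbols, and no nas or mlt name changed. Probes of a gene were averaged per array, and values were not centred.

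For the gene test, lmFit and eBayes of limma 3.58.1 (R 4.3.3) compared each mean with 0, two-sided, with Benjamini-Hochberg adjustment. With 1 residual degree of freedom per gene the fit leans on a prior with 4.52. Since 1 reference RNA stands for the controls, their spread does not enter, and dye bias is not removed. The code was tested on simulated data, where recovery was required only for the largest shift simulated. How often smaller shifts would be found is not given here. The genes, classes and lists were chosen with earlier results of these data known. All genes of the 2 families may be named. Full statistics were given for the 8 highest and 8 lowest means and for genes with known roles. Lists are represented by genes past the threshold or otherwise by up to 3 of the largest means. The gene nhr-23 was named outside that rule. Alternatives changed the scaling, a limit on ratios, the summary of probes, the variance model and the naming. Sequences were not used here.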

Additional observations from a re-analysis of the deposited data

How the results depend on the processing

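The count of 0 nas and mlt genes past the limma test held with each array centred, with ratios limited to 5, with the median or only the lowest-numbered probe per gene, with robust eBayes and with RefSeq names. After quantile normalization 1 was higher (nas-12), and 1 instead of 3 was at least 2-fold lower on both arrays. Genes past the test over the whole table, 221 lower and 54 higher as deposited, came to 377 and 90 with each array centred, 447 and 159 after quantile normalization, and 115 and 25 with ratios limited to 5. With the lowest-numbered probe 35 were higher. Centring subtracted 0.10 and 0.02 from the preparation 1 and 2 arrays.

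The mean of nas-14 turned to -0.048 with the lowest-numbered probe, since its probes differ, and that of nas-33 to 0.0022 after quantile normalization. Counts on 1 array alone have no test. In preparation 1 alone, 17 of the 38 genes were at least 2-fold higher and 4 lower, beside 1967 and 2067 of all 14777 genes. In preparation 2 alone, 8 of the 38 were higher and 7 lower, beside 1994 and 2593 of the 14777. The nas median ranged from 0.29 to 0.79 and the mlt median from -0.65 to 0.36. The cause of these shifts was not tested. No paired analysis was possible because there is 1 group.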
